A study of Saccharomyces cerevisiae with 17 samples.

Results

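Chromosome III of budding yeast carries the genes described here: all rows of the RNA count tables with a systematic name beginning YCL (left arm) or YCR (right arm), except LEU2, a selection marker of the mutant strain, and HSP30. There are 182 such genes among 6572 counted, and 174 of them entered the test among 6297 genes. The comparison sets brr6-1 cells against wild-type (WT) cells in glucose and in galactose and asks, gene by gene, which transcripts stood at 2-fold, the ratio that an added copy of the chromosome would give in a haploid. DNA content was not measured in either RNA strain, so 2-fold serves as a yardstick and the copy number itself was not tested. The brr6-1 strain, yDBK168, is MATα with lys2-801, ade2-10, ura3-52, leu2-1 and Trp1-63, and carries brr6-1 marked with LEU2 and HIS3. BRR6 encodes a membrane protein of the nuclear envelope, and in brr6-1 a lysine replaces an arginine of its putative zinc finger. The WT strain, YPH399, has the same auxotrophic alleles without brr6-1. Each strain was grown in rich medium at 2% glucose, or in 2% raffinose with 0.04% sucrose followed by 2 h with 2% galactose, and the 4 groups hold 2 biological replicates each (A and B). Nothing in the labels says how many independent isolates stand behind either strain, so every difference between the strains is a difference between these strains as grown.

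A haploid yeast cell normally holds a single copy of each chromosome. Cells that gain a chromosome are called disomic for it, and in such strains the transcripts of most genes on it are known to rise with the copy number. Departures are known for genes under strong regulation by nutrients, pheromone or stress, whose level is set by the signal as well as by the copy number. Chromosome III is known for the mating-type locus MAT and its silent cassettes HML and HMR. It also carries genes of glycolysis, amino acid synthesis, ribosome assembly and the cytoskeleton.

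Reads assigned to genes ran from 15059271 to 17114156 in the brr6-1 libraries and from 18853431 to 21637381 in the WT libraries, so depth was lower in every brr6-1 library. BRR6 itself stood at 98.5 and 103 CPM (counts scaled by TMM to a common library size) in brr6-1 and 28.0 and 29.5 CPM in WT in glucose, and its RNA level does not read out the point mutation. LEU2 stood at 1409 and 2003 CPM in brr6-1 glucose libraries and 370.1 and 338 CPM in WT glucose libraries. Log2 CPM of libraries in the same group correlated at 0.991 to 0.998 across genes. Fold changes below are log2 values, brr6-1 over WT, ± standard error from edgeR's quasi-likelihood fit of the 8 libraries (n = 2 in each group), and adjusted p is Benjamini-Hochberg over all 6297 genes. CPM is not divided by gene length, so levels are compared between strains and not between genes.

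In glucose, RNA from nearly the whole of chromosome III was more abundant in brr6-1. The 182 genes took 4.10% of gene counts in brr6-1 replicate A and 4.75% in replicate B, against 2.16% and 2.15% in the WT replicates. Of the 174 genes tested, 144 rose (82.8%) and 0 fell by edgeR's quasi-likelihood test at an adjusted p under 0.05. Over all genes tested, 16.7% rose and 19.5% fell. The median log2 fold change of the chromosome III genes was 1.16, or 2.23-fold, with quartiles of 0.74 and 1.67. Genes of the other chromosomes had a median of 0.01 with quartiles of -0.35 and 0.47, so the spread between genes was about as wide there (interquartile range 0.821) as on chromosome III (0.925). In 170 genes both brr6-1 libraries lay above both WT libraries, which held for 38.3% of all genes tested. With WT glucose replicate A or B left out, the median log2 fold change was 1.08 or 1.13 on chromosome III and -0.05 or -0.04 elsewhere. Fewer rises were then called, both on chromosome III and over all genes tested. In both cases the lone WT library was assumed to vary like the other groups.

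In galactose the shift had the same direction, with a similar median fold change and a smaller change in the share of gene counts. The members' share of gene counts was 3.87% and 3.82% in brr6-1 libraries, against 2.53% and 2.36% in WT libraries. In this medium 136 genes rose (78.2%), against 8.29% of all genes tested, and 3 fell, against 14.3% of all genes tested. The 3 that fell were CIT2, GLK1 and YCL048W-A. The median log2 fold change was 1.03, or 2.05-fold, with quartiles of 0.68 and 1.46, and the other chromosomes had a median of 0.00. Both brr6-1 libraries lay above both WT libraries in 165 genes, against 32% of all genes tested. The galactose and glucose comparisons use different libraries but share 1 model and its estimate of spread. In both media 121 genes rose, which is 84.0% of those that rose in glucose and 89.0% of those that rose in galactose. Of all chromosome III genes tested, 78.2% rose in galactose and 82.8% in glucose, so the overlap was little above those shares.

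**Figure D1:**
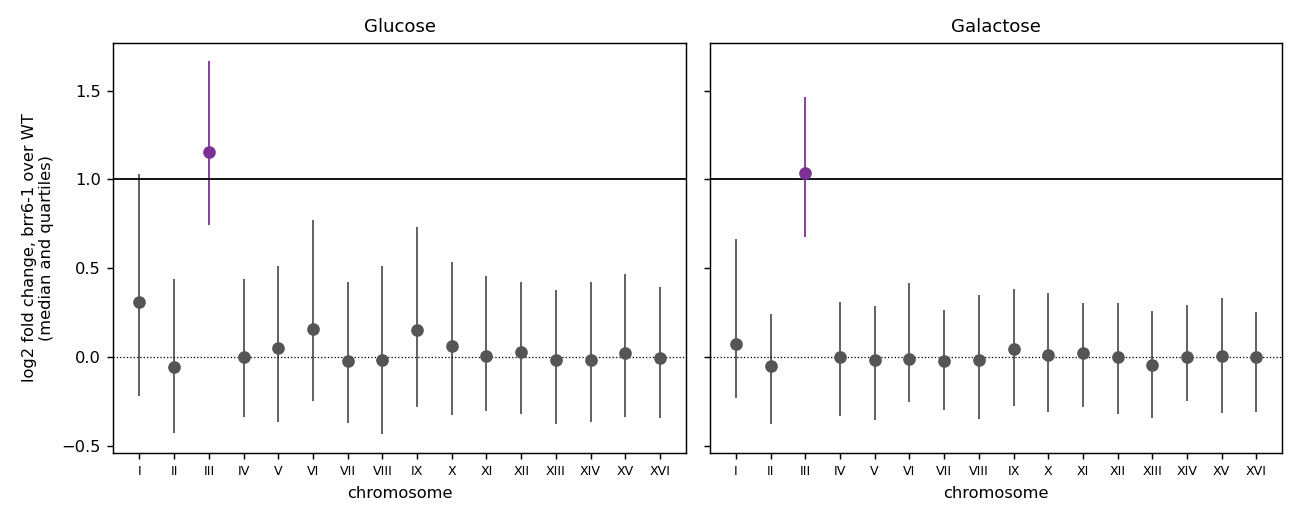
Log2 fold change of brr6-1 over WT by chromosome (y axis; median as a point, quartiles as a bar) in glucose (left panel) and galactose (right panel), with lines at 0 (dotted) and at 1, which is 2-fold. Medians of the other chromosomes lie between -0.06 and 0.31 in glucose and between -0.05 and 0.07 in galactose, while chromosome III (purple) lies near 1 in both.

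Of the 174 genes tested, 18 passed the count filter only through their brr6-1 libraries. Selection through brr6-1 favours genes that are higher there, so the counts of rises are also given without them. For the other 156, which pass on the WT libraries alone, 133 rose in glucose with a median of 1.06, and 131 rose in galactose with a median of 0.95. Genes of other chromosomes selected in the same way had medians of -0.03 and -0.04. Another 8 genes had too few counts to be tested. Of these, HMLALPHA1, HMLALPHA2, MATALPHA1, MATALPHA2 and HMRA2 had 0 counts in all 8 libraries. These genes belong to the mating-type locus and its silent cassettes, which are known to hold repeated sequence, and why they had no counts was not tested. RDT1 had 10 counts in brr6-1 and 2 in WT in galactose, a ratio of 5.30 (95% counting interval 1.13 to 49.7). YCL065W, which overlaps the HML cassette, had 13 counts in brr6-1 and 2 in WT in galactose. YCL068C had 2 counts in all, both in brr6-1 galactose replicate B.

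Departures from 2-fold were then tested by taking 2-fold, not 1-fold, as the null for chromosome III genes. In glucose, 35 genes lay above 2-fold and 31 below it by edgeR's quasi-likelihood test, together 37.9% of the members tested. The background is the share of all genes tested that left their own null, which was 14.7% above and 19.9% below, together 34.5%. The spread of chromosome III genes around 2-fold was thus near the spread of other genes around no change. In galactose, 16 genes lay above and 24 below, together 23.0%, against a background of 6.07% above and 14% below, together 20%. Without the 18 genes that passed only through brr6-1, 31 lay above and 31 below in glucose, and 14 above and 24 below in galactose. A larger group rose with no departure called: 96 genes in glucose and 114 in galactose, and 68 genes did so in both media.

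The departures rest on few libraries. In glucose, 1 gene above and 3 below 2-fold were left without WT replicate A, 2 and 4 without WT replicate B, and 9 and 9 without brr6-1 replicate A. In galactose the counts above and below were 5 and 5 without brr6-1 replicate A, 6 and 14 without brr6-1 replicate B, 30 and 24 without WT replicate A, and 4 and 11 without WT replicate B. Below 2-fold in galactose, 15 genes were left without WT glucose replicate A and likewise 15 without B. With each of the 8 libraries left out in turn, ABP1 stayed above and CHA1, CIT2 and RHB1 below 2-fold in glucose every time. In galactose YCR024C-B stayed above, and GLK1, YCL048W-A, CIT2, PGK1 and SRD1 stayed below. Departure calls over all genes tested also became fewer without either WT glucose replicate or brr6-1 replicate A in glucose. In galactose they became fewer without either brr6-1 galactose replicate or WT galactose replicate B, and more without WT galactose replicate A. Scaling by library totals alone lifts the median of other chromosomes' genes by 0.32 in glucose and 0.24 in galactose on the log2 scale. It put 71 chromosome III genes above and 5 below in glucose, and 32 and 11 in galactose. Over all 6297 genes it called 2116 above and 345 below their null in glucose, and 1159 and 433 in galactose.

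A missed departure does not place a gene at 2-fold. The 95% interval of the log2 fold change lay wholly between 0.5 and 1.5 for 33 genes in glucose and 35 in galactose, and 11 genes met this in both. In glucose, 13 genes rose and were still below 2-fold, 18 were below 2-fold without a rise being called, and 12 were called neither way. RHB1 was the single gene whose glucose interval lay within -0.5 and 0.5.

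**Figure D2:**
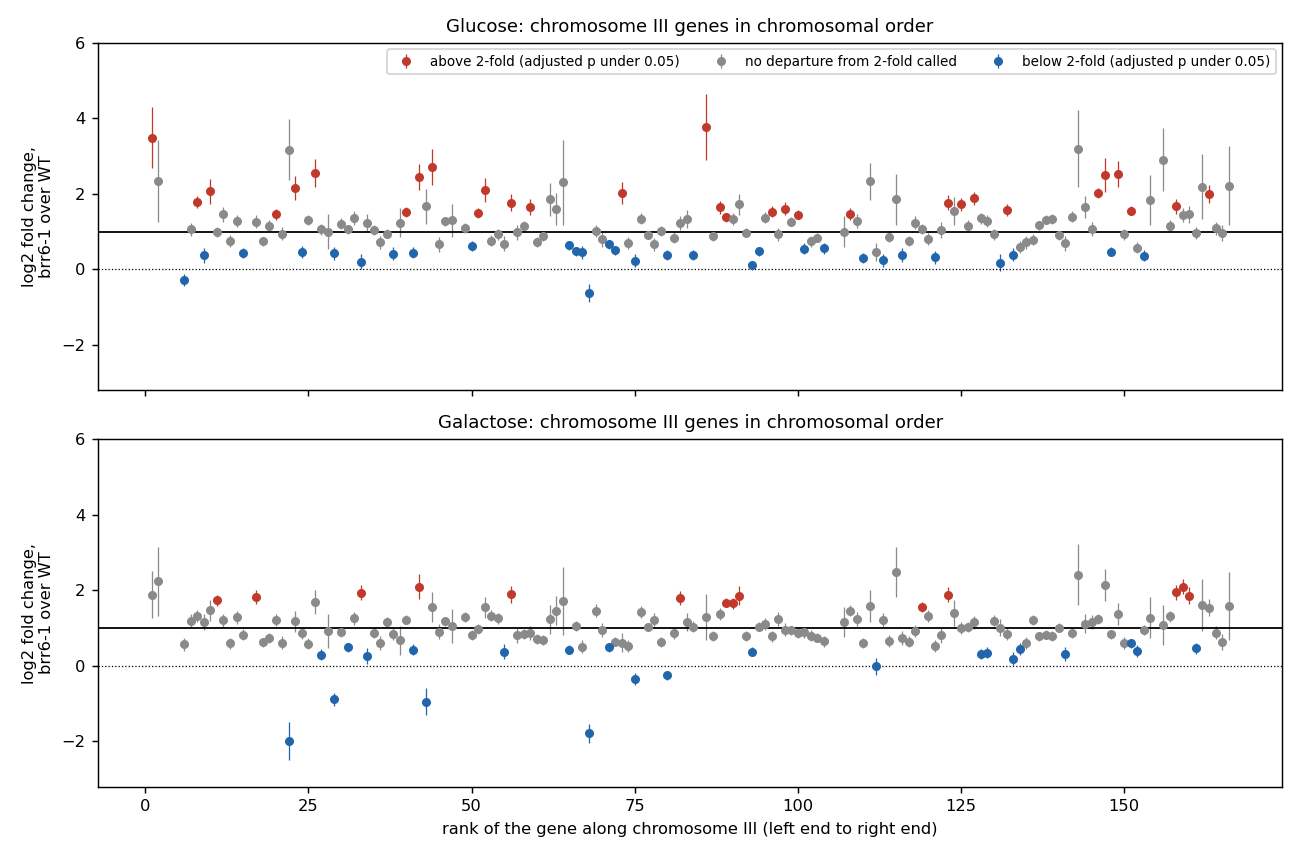
Log2 fold change ± standard error (y axis) of the tested chromosome III genes that have coordinates, in their order along the chromosome (x axis, rank), for glucose (top) and galactose (bottom). Genes above 2-fold (red), below it (blue) and with no departure called (grey) are interspersed along the chromosome around the solid line at 1.

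Genes above and below 2-fold occurred on both arms. The median log2 fold change was 1.24 on the left arm and 1.117 on the right arm in glucose, and 1.16 and 1.02 in galactose. In 8 windows of 40 kb (R64 coordinates), medians ran from 0.84 to 1.45 in glucose and from 0.86 to 1.27 in galactose. Every window held at least 9 genes that rose in each medium, so no stretch of 40 kb stood at the WT level.

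The fold change moved with a gene's abundance and, in glucose at a given abundance, with its length, on chromosome III and elsewhere alike. Genes with a mean under 2 log2 CPM had a median log2 fold change of 2.30 in glucose on chromosome III and 1.17 on other chromosomes. At 8 log2 CPM and above, those medians were 0.76 and -0.33. The difference between the 2 medians was 1.13, 1.36, 1.20, 1.08 and 1.09 over 5 classes of rising abundance in glucose, and 0.85, 1.24, 1.02, 0.87 and 1.01 in galactose. The lowest class holds the 18 genes that passed the filter only through brr6-1. Among genes that pass on the WT libraries alone, 15 on chromosome III remain in it, and the difference there was 0.79 in glucose and 0.98 in galactose. Of the 35 genes above 2-fold in glucose, 21 had a mean under 4 log2 CPM, against 0 of the 31 below it. Given abundance, the partial Spearman correlation of the glucose fold change with gene length was 0.44 over 157 chromosome III genes and 0.50 over 5598 others. In galactose those values were 0.05 and 0.14. Without allowing for abundance, the Spearman correlation with length in glucose was 0.00022 on chromosome III and 0.16 elsewhere. In galactose it was -0.14 and 0.03. The genes above 2-fold in glucose had a median length of 1539 bp, against 988.5 bp for those below.

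**Figure D3:**
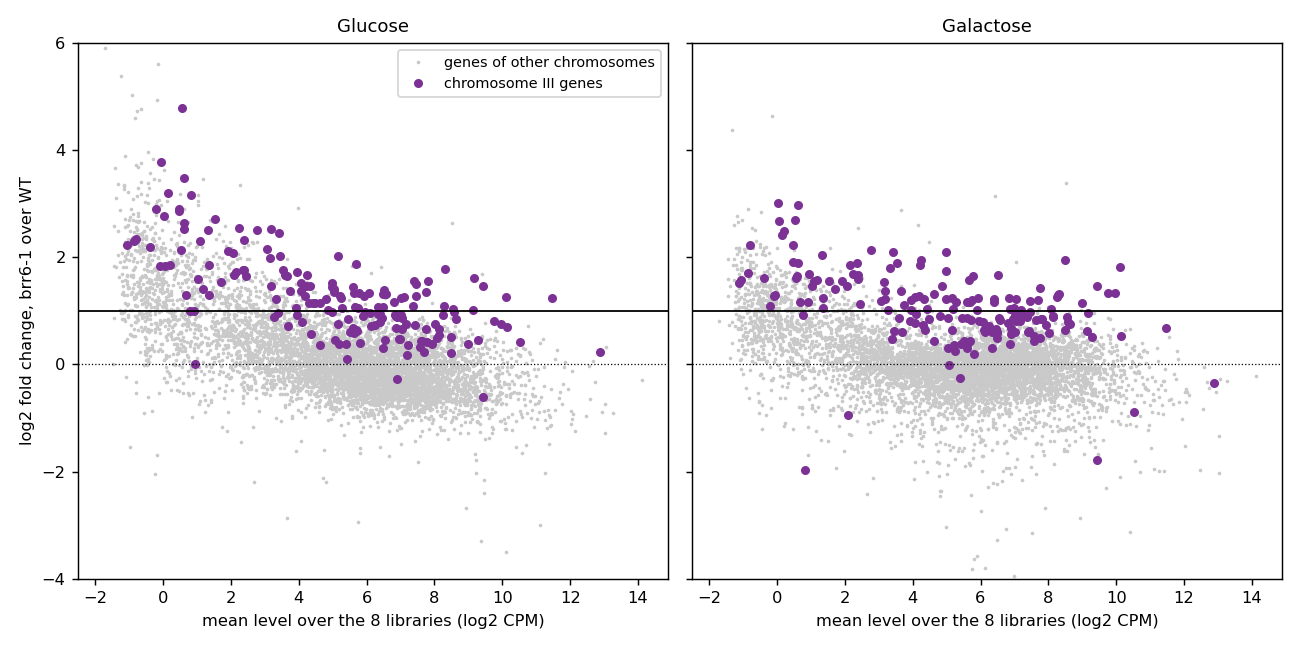
Log2 fold change of brr6-1 over WT (y axis) against mean level over the 8 libraries in log2 CPM (x axis) for tested chromosome III genes (purple) and genes of the other chromosomes (grey), in glucose (left) and galactose (right). Both clouds slope down with abundance, with Spearman rho of -0.67 and -0.58 in glucose and -0.49 and -0.36 in galactose, and the purple cloud lies about 1 unit higher. A few points of other chromosomes lie outside the y range.

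With the trend on abundance and length of the other chromosomes taken out of every gene, an alternative chosen after the data were seen, 6 genes lay above 2-fold and 6 below in glucose, of which 4 and 5 had been called without this step. Those above were LSB5, MRC1, YCR024C-B, ELO2, PTC6 and ABP1. Those below were CHA1, CIT2, YCR013C, YCR018C-A, RHB1 and BUD5. In galactose 14 genes lay above and 16 below after the same step, 11 and 16 of them called before. The rise of the chromosome as a whole was called for 130 genes in glucose and 126 in galactose, with medians of 1.09 and 0.99. Every other glucose departure named below lost its call in this alternative, and the distance from 2-fold changed sign for STP22, RVS161, PGK1 and CDC39. What underlies the trend was not tested. The share of all genes called after this step was not taken, so its counts stand without a background. The 17 tested genes without coordinates have no length, and only the trend on abundance was removed from them.

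The 6 genes with a mean over 5 log2 CPM that lay nearest to 2-fold over both media are given first. STE50, the adaptor of the pheromone and osmotic stress kinase Ste11, stood at 91.0 and 102 CPM in brr6-1 and 49.5 and 50.9 CPM in WT in glucose, and at 136 and 122 CPM in brr6-1 and 55.1 and 59.9 CPM in WT in galactose. Its log2 fold changes were 0.94 ± 0.12 and 1.16 ± 0.12, with no overlap between strains in either medium. VMA9, a subunit of the vacuolar proton pump, stood at 66.3 and 99.1 CPM in brr6-1 and 42.7 and 41.0 CPM in WT in glucose, with log2 fold changes of 0.98 ± 0.20 there and 0.81 ± 0.20 in galactose. AHC2, of the ADA histone acetyltransferase complex, had 0.90 ± 0.12 and 1.02 ± 0.12, and LSB5, which takes part in actin-linked endocytosis, 1.04 ± 0.14 and 0.88 ± 0.14. CTO1 had 0.90 ± 0.11 and 1.03 ± 0.11, and RDS1, a zinc cluster transcription factor, 1.08 ± 0.17 and 0.88 ± 0.17. All 6 rose in both media with no departure from 2-fold called, but LSB5 lay above it in glucose once the trend on abundance and length was removed, by 0.57 ± 0.14 (edgeR adjusted p = 0.035).

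In 6 genes the departure above 2-fold was called in both media. With the trend on abundance and length removed, YCR024C-B alone of the 6 was still called above in glucose, and YCR024C-B, TVS1 and YCR099C in galactose. STP22, whose product is the ESCRT-I subunit that sorts ubiquitinated membrane proteins, stood at 6.19 and 6.95 CPM in brr6-1 and 1.79 and 2.06 CPM in WT in glucose and 9.03 and 9.42 CPM in brr6-1 and 2.63 and 2.32 CPM in WT in galactose. Its log2 fold changes were 1.77 ± 0.23 (edgeR adjusted p against 2-fold = 0.031) and 1.89 ± 0.22 (edgeR adjusted p = 0.018), at low levels in all 8 libraries. With the trend removed its glucose distance from 2-fold was -0.0047 on the log2 scale. FUS1, a membrane protein of mating cell fusion, stood at 19.7 and 20.8 CPM in brr6-1 and 3.83 and 3.61 CPM in WT in glucose, a log2 fold change of 2.45 ± 0.34, and at 17.2 and 12.9 CPM in brr6-1 and 5.03 and 1.91 CPM in WT in galactose, 2.10 ± 0.33. The WT galactose replicates of FUS1 differed from each other by 2.64-fold, while both brr6-1 replicates lay above them. The other 4 were YCR024C-B (1.38 ± 0.12 in glucose and 1.67 ± 0.12 in galactose), TVS1 (1.76 ± 0.20 and 1.89 ± 0.20), YCR099C (1.67 ± 0.20 and 1.95 ± 0.20) and YCR081C-A. YCR081C-A stood between 1.25 and 1.92 CPM in brr6-1 libraries and between 0.155 and 0.272 CPM in WT libraries, and passed the count filter only through brr6-1. YCR099C overlaps EMA35 on the same strand, and reads of the overlap cannot be told apart.

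In 10 genes the departure below 2-fold was called in both media. With the same trend removed, CIT2, YCR018C-A and RHB1 were still below in glucose, and 8 of the 10 in galactose, all but RNQ1 and YCR018C-A. RHB1, a small GTPase of the Rheb family, stood at 38.7 and 43.8 CPM in brr6-1 and 39.3 and 37.4 CPM in WT in glucose, where the strains overlapped, and at 51.0 and 51.3 CPM in brr6-1 and 37.5 and 41.5 CPM in WT in galactose, where they did not. Its log2 fold changes were 0.11 ± 0.12 and 0.37 ± 0.12. RNQ1, the protein behind the [PIN+] prion, stood at 209.8 and 218 CPM in brr6-1 and 158 and 157 CPM in WT in glucose, a rise of 0.44 ± 0.13 that stayed below 2-fold (edgeR adjusted p against 2-fold = 0.013). The septin gene CDC10 had 0.63 ± 0.13 in glucose and 0.43 ± 0.12 in galactose, and SAT4, a kinase that acts on potassium uptake, 0.66 ± 0.12 and 0.50 ± 0.12. These 3 rose in both media and did so by less than 2-fold. SRD1, linked to pre-rRNA processing, had 0.38 ± 0.12 and -0.25 ± 0.12, SOL2 0.39 ± 0.17 and 0.19 ± 0.17, and YCR018C-A 0.37 ± 0.15 and 0.44 ± 0.14. The other 3 are the enzymes CIT2, GLK1 and PGK1, described below.

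**Figure D4:**
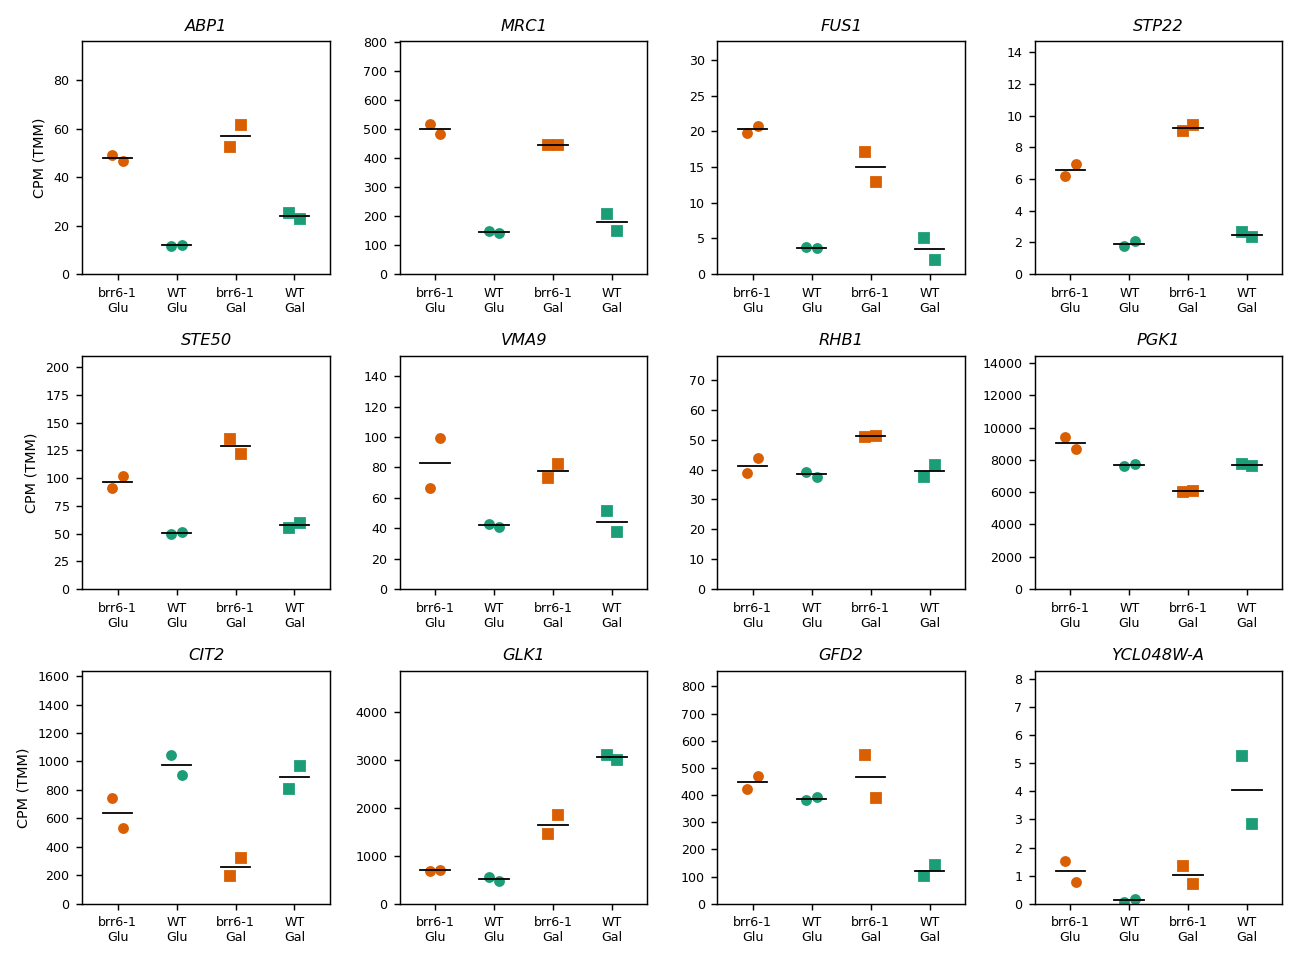
TMM-scaled CPM (y axis, from 0) in each library (points; line, mean of the 2 replicates) for 12 chromosome III genes, with brr6-1 (orange) left of WT (green) in glucose (Glu, circles) and galactose (Gal, squares). ABP1, MRC1, FUS1 and STP22 lie above 2-fold in glucose, STE50 and VMA9 near it in both media, and RHB1, PGK1 and CIT2 below it in both, while GLK1, GFD2 and YCL048W-A differ between media.

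The genes farthest above 2-fold in glucose were mostly rare transcripts. Of the 16 genes above 2-fold in galactose, 7 had a mean under 4 log2 CPM, against 21 of 35 in glucose. In glucose YCL023C had 59 counts in the brr6-1 libraries together and 2 in the WT libraries, a depth-adjusted ratio of 29.6 (95% counting interval 7.84 to 250.1). YCR022C had 43 and 3 counts, a ratio of 14.4 (4.60 to 72.5). YCR047W-A, for which no departure from 2-fold was called, had 21 and 0 counts. That is at least 7.02-fold higher against a floor of 3 counts over the group. GEX1, a glutathione exchanger with a near-identical copy elsewhere, stood at 3.16 and 1.07 CPM in brr6-1 and 0.128 and 0.229 CPM in WT in glucose. All 4 passed the count filter only through brr6-1. Those counting intervals cover counting error only. Among genes that WT cells also express, MGR1, an adaptor of the mitochondrial i-AAA protease, stood at 8.36 and 5.55 CPM in brr6-1 and 1.397 and 0.973 CPM in WT and rose by 2.55 ± 0.37. The nitroreductase-like gene FRM2 stood at 4.15 and 3.81 CPM in brr6-1 and 0.511 and 0.687 CPM in WT, rising by 2.71 ± 0.48, and KIN82, a kinase that activates lipid flippases, at 14.2 and 8.91 CPM in brr6-1 and 2.30 and 1.72 CPM in WT, rising by 2.52 ± 0.35. All 3 lay above 2-fold in glucose and had no departure called in galactose, and the difference between media was not called for any of them.

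Counts in the role lists below stand beside rises in 82.8% of the chromosome III genes tested in glucose and 78.2% in galactose. Over all genes tested, 16.7% and 8.29% rose. Departures above and below the null have backgrounds of 14.7% and 19.9% in glucose, and 6.07% and 14% in galactose. Of the 3 genes that fell in galactose, 2 belong to carbon metabolism. Of 7 listed, 4 rose in glucose, where 2 lay above 2-fold and 3 below it, and 3 rose in galactose, where 2 fell and 3 lay below 2-fold. With the trend on abundance and length removed, CIT2 alone of the 7 departed in glucose, below 2-fold, and the 3 below it in galactose kept their call. CIT2, the peroxisomal citrate synthase of the glyoxylate cycle and a target of the retrograde signal from mitochondria, stood at 741 and 534 CPM in brr6-1 and 1048 and 904 CPM in WT in glucose. In galactose the values were 195 and 319 CPM in brr6-1 and 809.7 and 965 CPM in WT, a log2 fold change of -1.79 ± 0.24 (edgeR adjusted p = 0.00082). Both strains' libraries were apart in both media with brr6-1 lower, and the glucose value of -0.62 ± 0.24 did not pass against no change (edgeR adjusted p = 0.065). GLK1, a glucokinase that is known to be repressed by glucose, stood at 686 and 705 CPM in brr6-1 and 557 and 483 CPM in WT in glucose and at 1446 and 1851 CPM in brr6-1 and 3106 and 2998 CPM in WT in galactose. Its level in galactose was lower in both brr6-1 libraries, with a log2 fold change of -0.89 ± 0.16 (edgeR adjusted p = 0.0047). PGK1, the glycolytic phosphoglycerate kinase, stood at 9440.3 and 8649 CPM in brr6-1 and 7622 and 7763 CPM in WT in glucose, a log2 fold change of 0.23 ± 0.16. In galactose the values were 6014 and 6066 CPM in brr6-1 and 7709 and 7589.7 CPM in WT, or -0.34 ± 0.16, which passed against 2-fold (edgeR adjusted p = 0.0006) and not against no change. AAD3, an aryl-alcohol dehydrogenase gene with near-identical copies elsewhere, rose by 0.96 ± 0.20 and 0.63 ± 0.20.

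Of 5 amino acid genes, 4 rose in glucose and 3 in galactose, and in each medium 1 lay below 2-fold. ILV6, a regulatory subunit of branched-chain amino acid synthesis, rose by 0.67 ± 0.20 in glucose and lay below 2-fold in galactose, at 0.37 ± 0.20, with no rise called there. THR4, threonine synthase, rose by 1.24 ± 0.16 in glucose and 0.91 ± 0.16 in galactose, and AGP1, a broad amino acid permease, by 0.67 ± 0.20 and 0.90 ± 0.20. CHA1, the serine and threonine deaminase that is induced by those amino acids, stood at 98.9 and 74.3 CPM in brr6-1 and 109 and 101 CPM in WT in glucose, with both brr6-1 libraries lower and a log2 fold change of -0.28 ± 0.17. In galactose the values were 164 and 180.0 CPM in brr6-1 and 101 and 130.2 CPM in WT, and it rose by 0.57 ± 0.16. Its glucose value was below 2-fold (edgeR adjusted p = 0.0021) and the fall itself was not called. HIS4, a histidine synthesis enzyme under general amino acid control, stood at 3320.4 and 9982 CPM in brr6-1 and 2660.2 and 2990.5 CPM in WT in glucose, so the brr6-1 replicates differed by 3.01-fold and its log2 fold change of 1.24 ± 0.38 rests mostly on replicate B. Without that library it lay 0.77 below 2-fold on the log2 scale.

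Of 8 genes of the ribosome and its assembly, 4 rose in glucose with a median of 0.48 and 5 lay below 2-fold (62.5%, against 19.9% of all genes tested), while all 8 rose in galactose with a median of 1.18 and 0 lay below. With the trend on abundance and length removed, 0 of the 8 were called below 2-fold in glucose. BUD23, which methylates small-subunit rRNA, stood at 277 and 232 CPM in brr6-1 and 211 and 220.0 CPM in WT in glucose and at 288 and 211 CPM in brr6-1 and 93.4 and 123 CPM in WT in galactose. Its log2 fold changes were 0.24 ± 0.18 and 1.21 ± 0.18, and RSA4, of large-subunit assembly, had 0.17 ± 0.23 and 1.01 ± 0.23. KRR1, of the small-subunit processome, had 0.37 ± 0.21 and 1.15 ± 0.21. The difference between media was called for none of the 8 (adjusted p of BUD23 0.055, edgeR). SPB1, an rRNA methyltransferase, was the member above 2-fold in galactose, at 1728 and 1274 CPM in brr6-1 and 425 and 425 CPM in WT and 1.82 ± 0.18. PWP2 of the small-subunit processome rose by 0.81 ± 0.16 and 1.33 ± 0.16 with no departure. RPS14A, a ribosomal protein gene with a close paralog, rose by 0.93 ± 0.18 and 1.24 ± 0.18, and part of its reads may belong to that paralog.

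Of 6 tested mating genes, 6 rose in glucose and 5 in galactose. KAR4, a transcription factor of karyogamy, stood at 286 and 305 CPM in brr6-1 and 208 and 227 CPM in WT in glucose, a rise of 0.44 ± 0.14 that was below 2-fold. RVS161, of endocytosis and cell fusion, rose by 0.51 ± 0.12 in glucose, also below 2-fold, and by 0.64 ± 0.12 in galactose. FUS1 and FIG2 lay above 2-fold in glucose and stood at or below 20.8 CPM in every library. HMRA1, the a1 regulator gene kept silent in the HMR cassette, had 24 counts in the brr6-1 glucose libraries and 3 in the WT ones, a ratio of 8.03 (95% counting interval 2.44 to 41.6). It passed the count filter only through brr6-1, and without it 5 of 5 mating genes rose in glucose.

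Mitochondrial protein genes mostly rose, as most chromosome III genes did, 11 of 12 in glucose and 10 in galactose, with medians of 1.20 and 1.08. NFS1, the cysteine desulfurase of iron-sulfur cluster synthesis, stood at 374 and 438 CPM in brr6-1 and 182 and 201 CPM in WT in glucose, a rise of 1.08 ± 0.13, and rose by 1.30 ± 0.13 in galactose. PTC6, a mitochondrial protein phosphatase, rose by 1.31 ± 0.12 and 0.82 ± 0.12. The ribosomal protein gene MRPL32 rose by 0.47 ± 0.13 in glucose, below 2-fold, and by 1.06 ± 0.13 in galactose. IMG1, another mitochondrial ribosomal protein gene, stood at 40.5 and 41.5 CPM in brr6-1 and 31.9 and 51.1 CPM in WT in galactose, where the strains overlapped, and lay below 2-fold there at -0.02 ± 0.22.

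Genes of the endoplasmic reticulum, lipids and GPI anchors rose in 10 of 11 cases in glucose and 9 in galactose, with medians of 1.01 and 0.63. CWH43, which remodels GPI anchors, stood at 901 and 785 CPM in brr6-1 and 407 and 428 CPM in WT in glucose, a rise of 1.01 ± 0.14, and rose by 0.63 ± 0.14 in galactose. RER1, a Golgi receptor that returns membrane proteins to the endoplasmic reticulum, rose by 0.89 ± 0.14 and 0.69 ± 0.14. PBN1, of GPI mannosylation, rose by 0.74 ± 0.12 and 0.62 ± 0.12. PER1, a GPI phospholipase, stood at 99.4 and 120.3 CPM in brr6-1 and 92.2 and 86.8 CPM in WT in glucose and lay below 2-fold there, at 0.30 ± 0.13.

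Of 13 transporter, vacuole and autophagy genes, 12 rose in glucose and 10 in galactose, with medians of 1.06 and 1.04. NPP1, a nucleotide pyrophosphatase, stood at 547 and 472 CPM in brr6-1 and 269 and 251 CPM in WT in glucose and rose by 0.97 ± 0.13, and by 0.79 ± 0.13 in galactose. The phosphate transporter gene PHO87 rose by 0.84 ± 0.12 and 0.75 ± 0.12, and the ABC transporter gene ADP1 by 0.70 ± 0.16 and 0.53 ± 0.16. None of these 3 departed from 2-fold in either medium.

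Transcription and chromatin genes rose in 9 of 10 cases in glucose and 10 of 10 in galactose, with medians of 1.29 and 0.98. TAF2, a large subunit of TFIID, stood at 1160.2 and 1006 CPM in brr6-1 and 394 and 389 CPM in WT in glucose and lay above 2-fold at 1.47 ± 0.15, and rose by 1.46 ± 0.15 in galactose. SGF29, of the SAGA acetyltransferase complex, rose by 0.92 ± 0.14 and 1.26 ± 0.14. CDC39, the Not1 scaffold of the CCR4-NOT complex, was above 2-fold in glucose, at 204 and 219.6 CPM in brr6-1 and 71.8 and 72.3 CPM in WT and 1.56 ± 0.13, and below it in galactose, at 209.6 and 255 CPM in brr6-1 and 159.8 and 148 CPM in WT and 0.60 ± 0.13. No other gene left 2-fold upward in glucose and downward in galactose. With the trend on abundance and length removed, CDC39 had a glucose distance from 2-fold of -0.012 on the log2 scale and no departure was called in either medium.

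All 6 DNA replication and repair genes rose in both media, with medians of 1.25 and 1.07. MRC1, the replication checkpoint mediator, stood at 515 and 482 CPM in brr6-1 and 148 and 142 CPM in WT in glucose, above 2-fold at 1.79 ± 0.16 (edgeR adjusted p against 2-fold = 0.0075), and rose by 1.32 ± 0.16 in galactose. POL4, a repair polymerase, rose by 1.34 ± 0.15 and 1.43 ± 0.15, and MSH3, a mismatch repair protein, by 0.93 ± 0.15 and 0.61 ± 0.15.

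The 8 cytoskeleton and budding genes also rose in both media without exception, with medians of 1.38 and 0.93. In glucose 4 lay above 2-fold and 2 below, against 14.7% and 19.9% of all genes tested. With the trend on abundance and length removed, ABP1 and LSB5 were called above and BUD5 below. ABP1, an actin-binding protein that activates actin branching, stood at 49.2 and 46.8 CPM in brr6-1 and 11.5 and 12.1 CPM in WT in glucose, the gene with the smallest p against 2-fold among those above it (2.02 ± 0.14, edgeR adjusted p = 0.0024). In galactose the values were 52.6 and 61.5 CPM in brr6-1 and 25.4 and 22.9 CPM in WT, and it rose by 1.24 ± 0.13. BUD3, an axial bud site protein, rose by 1.49 ± 0.14 in glucose, above 2-fold, and by 0.98 ± 0.13 in galactose. KCC4, a septin-linked kinase, rose by 1.28 ± 0.12 and 1.18 ± 0.12 with no departure. Of 6 tested genes with a near-identical copy elsewhere, 4 rose in glucose and 2 in galactose, and how reads were divided between copies is uncertain for all of them. Of the 6, HMRA1, VBA3, GEX1 and PAU3 passed the count filter only through brr6-1, and the 2 that pass on WT libraries, AAD3 and RPS14A, rose in both media.

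The size of the brr6-1 effect differed between media for 8 genes by edgeR's interaction test, 4.60% of the members tested, against 5.59% of all genes tested. It was larger in galactose for GFD2 alone (1.65% of all genes) and smaller for the other 7 (3.94%). GFD2 stood at 421 and 472 CPM in brr6-1 and 383 and 391 CPM in WT in glucose and at 549 and 388 CPM in brr6-1 and 102 and 142 CPM in WT in galactose, so the brr6-1 libraries overlapped between media while the WT libraries were lower in galactose. Its log2 fold changes were 0.20 ± 0.19 and 1.94 ± 0.20, a difference of 1.74 ± 0.28. YCL048W-A, beside SPS22 on the chromosome, stood at 1.51 and 0.785 CPM in brr6-1 and 0.0638 and 0.172 CPM in WT in glucose and at 1.35 and 0.705 CPM in brr6-1 and 5.26 and 2.84 CPM in WT in galactose. HBN1, a nitroreductase-like gene next to FRM2, stood at 3.75 and 1.91 CPM in brr6-1 and 0.958 and 0.801 CPM in WT in glucose and at 4.20 and 4.23 CPM in brr6-1 and 10.5 and 5.73 CPM in WT in galactose. In both genes the WT libraries were higher in galactose than in glucose, and the brr6-1 libraries were below the WT ones in galactose alone, and neither exceeded 10.5 CPM in any library. ATG15, the vacuolar lipase of autophagy, rose by 1.35 ± 0.14 in glucose and had 0.31 ± 0.13 in galactose, where it was below 2-fold. CPR4, a prolyl isomerase of the secretory pathway, had 1.28 ± 0.16 and 0.35 ± 0.16, and was likewise below 2-fold in galactose. The other 3 were GLK1, ABP1 and CDC39. Without WT glucose replicate A or B, 0 of the 8 were called, and the count was 5 without WT galactose replicate A, 23 without WT galactose replicate B and 1 without brr6-1 galactose replicate A. Calls of this difference over all genes tested also became fewer without either WT glucose replicate, WT galactose replicate A or brr6-1 galactose replicate A. They became more frequent without WT galactose replicate B. DESeq2's Wald test called 20 chromosome III genes and library totals alone 14. Over all genes tested those settings called 271 higher and 346 lower, and 69 higher and 306 lower.

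**Figure D5:**
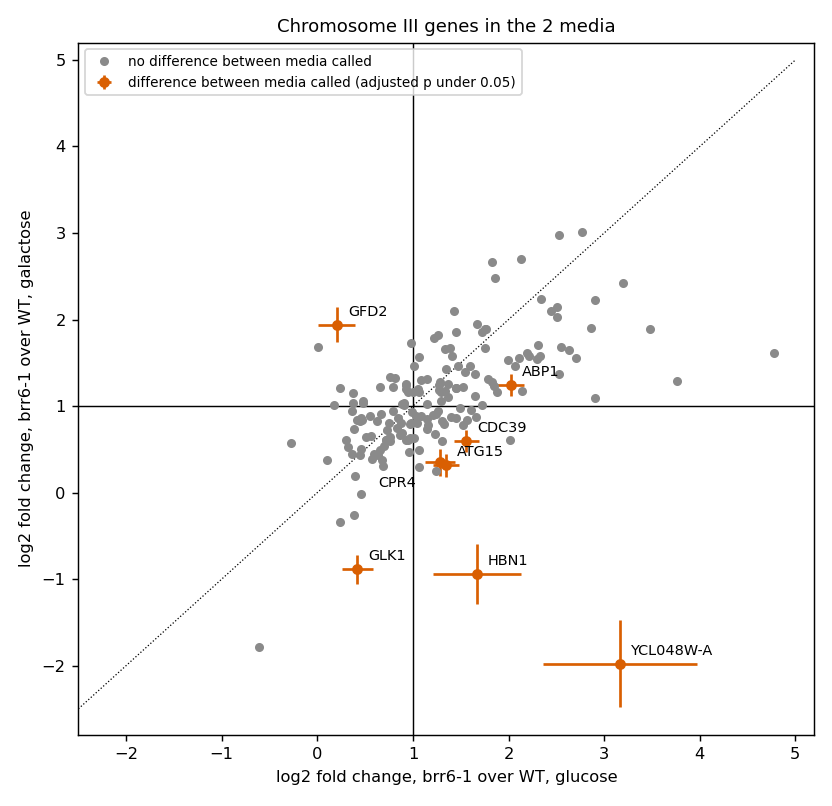
Log2 fold change of brr6-1 over WT in galactose (y axis) against glucose (x axis) for the 174 tested chromosome III genes, with solid lines at 1 (2-fold) and a dotted line of equal effect. The 8 genes whose effect differed between media (orange, with standard errors) lie off the dotted line, GFD2 above it and the other 7 below it.

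The response to the medium was also compared within each strain. Between galactose and glucose, 26 chromosome III genes changed in brr6-1, 10 higher and 16 lower in galactose, against 16% of all genes tested (8.75% higher and 7.26% lower). In WT, 75 changed, 41 higher and 34 lower, against 44.8% of all genes tested (24.3% higher and 20.5% lower). The chromosome III share was 14.9% in brr6-1 and 43.1% in WT, near the background in both strains. The WT count was smaller without either WT glucose replicate, and calls over all genes tested also became fewer. The brr6-1 count was smaller without either WT glucose replicate or either brr6-1 galactose replicate, again with fewer calls over all genes tested. Log2 CPM of replicates correlated at 0.991 in brr6-1 and 0.998 in WT in glucose, and at 0.996 in brr6-1 and 0.993 in WT in galactose, and the part of replicate spread in the lower brr6-1 count was not tested.

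A separate ChIP table gives the signal of FLAG-tagged Brr6 fragments, expressed in the strain W303 from a galactose promoter, at 22 peaks, of which 2 lie on chromosome III. The peak at chromosome III 154820 to 156900 (R64), listed with MAK31, HTL1 and HSP30, had a precipitate-to-extract ratio of 1.93 and 2.09 in the 2 Brr6N precipitates. The ratio was 0.741 and 0.705 for Brr6deltaC4N and 0.773 and 0.717 for the empty vector. The peak at 293560 to 294280, listed with HMRA2 and HMRA1, had ratios of 0.479 and 0.495 for Brr6N, 0.407 and 0.532 for Brr6deltaC4N, and 0.445 and 0.452 for the vector. Each construct had 1 total extract, so the 2 ratios of a construct share a denominator and are not independent. By these ratios Brr6N lay above the vector at the first peak and not apart from it at the second. At the first peak MAK31 rose by 1.33 ± 0.23 in glucose and 1.17 ± 0.23 in galactose, with no departure from 2-fold, and HTL1, an RSC chromatin remodeller subunit, had 0.38 ± 0.14 and 1.04 ± 0.14, below 2-fold in glucose.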

How the data were processed

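Directional libraries of rRNA-depleted RNA were read from a single end over 50 bp, per the labels. The authors deposited 1 file of raw read counts per gene for each of the 8 RNA libraries, and the submitters' processing notes name cutadapt, TopHat, HTSeq and build R64. No strand option of HTSeq is stated there, so overlapping genes are uncertain. Lines that name no gene were left out. They hold reads that met no gene, 23.4 to 37.5% of the sum of those and gene counts, and alignments that were not unique, 53.5 to 65.3% of everything tallied. The deposited ChIP table gives signal per peak and library, headed as RPKM, from Bowtie 1.1.2 per the submitters' processing notes, and the ratio of mean signals was computed here. Letters A and B were not tied across groups by the labels, and differences between A and B correlated at -0.10 to 0.21 over the 6 pairs of groups, so they were not used as pairs.

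Gene symbols and coordinates come from a RefSeq table of R64, which matched 5898 of 6572 IDs (164 of 182 on chromosome III). Genes were kept by edgeR's filterByExpr (minimum count 10), scaled by TMM and tested with edgeR's quasi-likelihood method in 1 model of 8 libraries and 4 groups (4 residual degrees of freedom). For departures the offsets of brr6-1 libraries were raised by 1 log2 unit on chromosome III rows, other genes kept a null of no change, and p-values were adjusted over all 6297 genes at a threshold of 0.05. Standard errors divide the size of the log2 fold change by the square root of F, and the depth above sets their precision. Alternatives were other scalings, filters and tests, a replicate block, each library left out, and, chosen after the data were seen, removal of the trend on abundance or on abundance and length of other chromosomes by loess. Scripts were tested on simulated counts. The 182 genes, the 11 role lists and the tests were chosen with earlier results of these data known. The rule for naming genes took the 8 farthest above and below 2-fold in each medium among those past the test. It also took those departing the same way in both media and the 6 nearest 2-fold with a mean over 5 log2 CPM. Those that fell, those that differed between media, and up to 3 of highest mean per role list completed it. Of the genes under this rule, YCL022C and YCR038W-A are not described, and EMA35 is named without values. FIG2, ELO2, ILV6, VBA3, PAU3, BUD5, YCR013C, MAK31, HTL1, YCR047W-A, HMRA1, the untested genes and the lists of genes that kept a call were named after their values were seen. Versions were R 4.3.3, edgeR 4.0.16, limma 3.58.1, DESeq2 1.42.0, Python 3.11.15, pandas 2.3.3, numpy 2.4.6, scipy 1.17.1 and matplotlib 3.10.9.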

Additional observations from a re-analysis of the deposited data

Results flagged for a closer look

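The brr6-1 effect in galactose minus that in glucose, on the log2 scale, passed edgeR's interaction test for 8 chromosome III genes, 4.60% of those tested, against 5.59% of all genes tested. Each is given here because its effect differed between the media. The difference was 1.74 ± 0.28 for GFD2 (edgeR adjusted p = 0.0092). It was -5.15 ± 0.94 for YCL048W-A (edgeR adjusted p = 0.016) and -2.61 ± 0.58 for HBN1 (edgeR adjusted p = 0.034). GLK1 had -1.31 ± 0.23 (edgeR adjusted p = 0.015) and ATG15 -1.03 ± 0.19 (edgeR adjusted p = 0.016). CDC39 had -0.96 ± 0.18 (edgeR adjusted p = 0.018), CPR4 -0.93 ± 0.22 (edgeR adjusted p = 0.043) and ABP1 -0.78 ± 0.19 (edgeR adjusted p = 0.043). All 8 lost the call when either WT glucose library was left out. CPR4 and ABP1 also lost it under DESeq2 size factors, cyclic loess and the replicate block.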

How the results depend on the processing

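The rise of chromosome III held its direction under every alternative run. The number of genes that rose ran from 81 to 153 in glucose and from 92 to 144 in galactose with each library left out, and from 130 to 167 and from 126 to 151 under the other alternatives. The median log2 fold change in glucose was 1.13 with DESeq2 size factors, 1.13 in DESeq2's Wald test, 1.48 with library totals, 1.07 with cyclic loess, 1.09 with at least 100 counts in 2 libraries, and 1.103 and 1.09 with the trend on abundance and on abundance with length removed. In galactose the same alternatives, without the first pair, gave 1.27, 0.96, 0.96, 0.98 and 0.99. TMM without chromosome III gave 1.17 and 1.02. Leaving out libraries gave 1.08 to 1.16 in glucose and 0.96 to 1.06 in galactose.

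Departures from 2-fold depended on the processing. In glucose 35 above and 31 below became 71 and 5 with library totals, 21 and 21 with cyclic loess, 20 and 11 with the abundance trend removed, 6 and 6 with abundance and length removed, and 28 and 28 with DESeq2's Wald test. With libraries left out they ran from 1 to 42 and from 3 to 34. In galactose 16 and 24 became 32 and 11 with library totals, and ran from 4 to 30 and from 5 to 34 with libraries left out. Intervals lay within 0.6 to 1.4 for 14 genes in glucose and 11 in galactose. Calls for the difference between media numbered 14 with library totals, 20 with DESeq2's Wald test and 0 to 23 with libraries left out. Calls between media ran from 39 to 80 in WT and from 10 to 29 in brr6-1.

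The distance from 2-fold in glucose changed sign with abundance and length removed for STP22 (-0.0047), RVS161 (0.098), PGK1 (0.052) and CDC39 (-0.012), and for HIS4 when a brr6-1 glucose library was left out (-0.77 without B, 0.82 without A). The cause was not tested. Of 6648 values of single genes under alternatives, 498 lost and 182 gained a call. With the replicate block 38 genes lay above and 29 below 2-fold in glucose, 19 and 28 did so in galactose, and 147 and 141 rose, against 144 and 136 without it. It moved no count of calls by more than 1.5 times. The A and B letters were not shown to pair the libraries. Precision is limited by 2 libraries in each group and, for rare transcripts, by depth.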
